A study of Mus musculus with 6 samples.

Results

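In maturing granulocyte-macrophage progenitors, 31 genes had a transient peak 48 h after the HOXA9 transcription factor was switched off. They were found among 4789 genes with a mean level of at least 20 CPM over 6 single-cell RNA-seq libraries, of 15185 genes with any UMI and 27998 columns in the table. A UMI is a molecular tag that lets each captured transcript be counted once, and CPM are a gene's UMIs per 1000000 UMIs of a library, summed over its cells. A gene was taken when its level in the HOXA9 OFF library at 48 h, with 10 CPM added, was at least 2 times that at both 0 and 96 h in the same arm, which held for 0.647% of the 4789 genes. The HOXA9 OFF values therefore chose the genes and are given only as a description. The levels in the other arm, CAF-1 OFF, entered only through the minimum mean over all 6 libraries. They let in 1 gene, Itga2b, whose mean was 21.6 CPM over the 6 libraries and under 20 CPM over the HOXA9 OFF libraries. They also kept genes out, since a minimum mean over the HOXA9 OFF libraries alone gave 39 genes, 30 of them among the 31. The choice was therefore not independent of the CAF-1 OFF arm.

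All cells were iGMPs, mouse bone marrow progenitors (C57BI/6 in the labels) immortalised by a HOXA9 that an estrogen receptor domain makes dependent on estradiol, and carrying a Lysozyme-GFP reporter (Lys-GFP-ER-HoxA9 cells). In the HOXA9 OFF arm, a clone with a control hairpin vector was sampled at 0 h in 150 ng/ml estradiol and at 48 and 96 h after estradiol was taken away (0 ng/ml), with no IPTG. In the CAF-1 OFF arm, a clone with an IPTG-inducible hairpin to Chaf1b, which encodes part of the CAF-1 histone chaperone, was kept in 150 ng/ml estradiol, so that HOXA9 stayed active, and was sampled at 0 h without IPTG and at 48 and 96 h in 500 µM IPTG. Each group is 1 library from live-sorted cells, so no difference was tested, the 95% intervals cover counting error only, and arm and clone cannot be told apart.

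Neutrophils and eosinophils both arise from myeloid progenitors and pack their granules in order of maturation. The proteins of the primary granules, such as neutrophil elastase, are made for a short time at the promyelocyte stage and their transcripts then disappear as later granules are filled. Eosinophils make their own granule proteins, of which the major basic protein encoded by Prg2 is the most abundant.

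The genes fell into a few groups by known role. Of the early granulocyte genes, the set held Elane (neutrophil elastase), Ms4a3 (a membrane protein of promyelocytes) and Fcnb (a ficolin of granulocyte precursors), and with them Prss57 (a serine protease of neutrophil granules). Of the eosinophil genes, it held Prg2 and its neighbour Prg3, a second major basic protein. Enzymes were Mgst2 and Lta4h (both of leukotriene metabolism), Alas1 (the first enzyme of heme synthesis), Hsd11b1 (which activates glucocorticoids), Tgm2 (a transglutaminase), Hsdl2, Pmm1 and Uba7 (which activates ISG15). Membrane and trafficking proteins were Cd63 (a tetraspanin of granule membranes), Tmed3, Bscl2, Svip, Tmem216, Plgrkt and the integrin chain Itga2b. The rest were the transcription factors Tfec and Ikzf2, coagulation factor F10, Rgcc, S100a1, Sh2d1b1, Plac8 and 3 little-known genes (1700020L24Rik, Gm1604a and Tnfsf13os). Gm1604a and Tnfsf13os are annotated as long non-coding RNAs, and S100a1 overlaps S100a13, so the assignment of their reads is less certain.

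The 31 genes lie on 15 chromosomes, and no 2 of them are within 50000 bases of each other except Prg2 and Prg3, which are 4563 bases apart on chromosome 2. The bases before the RefSeq start sites of 4 genes are shown (2 of the early granulocyte list, 1 eosinophil and 1 megakaryocyte gene) because their levels are the ones the comparison of cells and arms turns on. Windows of 300 bases (250 before and 50 after the start) were at hand for 25 of the 31 genes and were searched on both strands for 4 short motifs of factors that act in these lineages. Only the 250 bases before the start are printed, 5′ to 3′ on the strand of the gene (RefSeq, GRCm38.p6), with matches in capitals.
Elane, chr10:79886062-79886311, plus strand: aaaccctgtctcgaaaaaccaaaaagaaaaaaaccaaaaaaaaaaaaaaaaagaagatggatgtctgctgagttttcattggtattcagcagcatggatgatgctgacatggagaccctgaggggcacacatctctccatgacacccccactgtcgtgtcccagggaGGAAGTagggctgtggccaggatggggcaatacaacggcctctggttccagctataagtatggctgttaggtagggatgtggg
Ms4a3, chr19:11640852-11641101, minus strand: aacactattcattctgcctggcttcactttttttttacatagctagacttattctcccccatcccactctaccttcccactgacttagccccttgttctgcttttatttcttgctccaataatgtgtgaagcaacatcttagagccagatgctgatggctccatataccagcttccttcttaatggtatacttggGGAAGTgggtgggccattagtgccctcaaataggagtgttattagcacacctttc
Prg3, chr2:84987965-84988214, plus strand: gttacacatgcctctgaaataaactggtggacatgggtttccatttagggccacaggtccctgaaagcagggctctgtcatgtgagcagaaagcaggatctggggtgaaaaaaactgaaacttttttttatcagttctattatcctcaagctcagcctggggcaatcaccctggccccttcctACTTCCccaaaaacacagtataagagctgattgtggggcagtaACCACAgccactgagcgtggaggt
Itga2b, chr11:102469884-102470133, minus strand: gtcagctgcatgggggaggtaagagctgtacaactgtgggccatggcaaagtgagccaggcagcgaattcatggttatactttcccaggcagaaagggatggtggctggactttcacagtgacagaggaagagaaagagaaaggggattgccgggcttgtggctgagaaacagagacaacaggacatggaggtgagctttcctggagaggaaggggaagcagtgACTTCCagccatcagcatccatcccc
An ETS core (GGAAGT, or ACTTCC on the other strand) begins 83 bases before the start of Elane, 55 before that of Ms4a3, 67 before that of Prg3 and 26 before that of Itga2b, and Prg3 also has a RUNX match (TGTGGT or ACCACA) 24 bases before its start. The start used for Prg3 follows base 84988214 and lies inside the RefSeq gene span, which begins at base 84988196. The distance between Prg2 and Prg3 was taken from that span. Over the whole windows, the ETS letters were present in 13 of 25 genes (52%, against 26.5% of all 27025 genes with a window) and the RUNX letters in 8 (32% against 18.9%). The C/EBP letters (TTGCNNAA) were present in 3 of 25 (12% against 12.2%), among them Ms4a3, and the GATA letters (AGATAA) in 0 of 25 (12.7% of all genes). No match overlapped another in the 4 genes shown, and a match describes letters only.

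The libraries held 647, 927 and 911 kept cells under CAF-1 OFF and 473, 1404 and 1510 under HOXA9 OFF at 0, 48 and 96 h, with 3524285 to 5589486 UMIs each. Median UMIs per cell were 5956 to 6571 under CAF-1 OFF and 8660, 3535.5 and 2043.5 under HOXA9 OFF, so that the HOXA9 OFF library at 96 h was the shallowest. The limit on mitochondrial UMIs removed 66.2% of barcodes at 0 h and 0.198% at 96 h in that arm. Chaf1b, the target of the hairpin, was at 35.6, 3.22 and 6.49 CPM under CAF-1 OFF. Of the barcode sequences, 16 occurred in more than 1 library (32 of 5872 cells), 7 of them under HOXA9 OFF at 48 and at 96 h. Genes that mark tissues other than blood summed to at most 1.13 CPM in any library.

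Together the 31 genes held 3.61% of all UMIs under HOXA9 OFF at 48 h, against 0.700% at 0 h and 0.682% at 96 h. Prg2 alone gave much of this, and without it the shares were 1.95%, 0.613% and 0.379%. Under CAF-1 OFF the share was 0.577% at 0 h, 0.807% at 48 h and 1.34% at 96 h (0.563%, 0.780% and 1.25% without Prg2). Thus the genes took up more of the transcriptome at each later time of CAF-1 depletion, with no return at 96 h.

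Over the set, 11 of 31 genes were at least 2-fold higher under CAF-1 OFF at 48 h than at 0 h (10 CPM added), where 2.76% of all genes examined were. At 96 h, 18 of 31 were (5.22% of all genes). None of the 31 was at least 2-fold lower than the 0 h library at 48 h (0.0418% of all genes) or at 96 h (0.856%). The median log2 ratio was 0.76 at 48 h and 1.27 at 96 h, against 0 and -0.08 over all genes. Without Itga2b, which the 96 h library let in, 17 of 30 genes were at least 2-fold higher at 96 h. A minimum mean over the HOXA9 OFF libraries alone gave 39 genes, 30 of them among the 31. Of these, 12 were higher at 48 h (2.23% of all genes with that minimum) and 19 at 96 h (4.81%). Their median log2 ratios were 0.49 and 0.96. Both comparisons share the 0 h library.

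**Figure D1:**
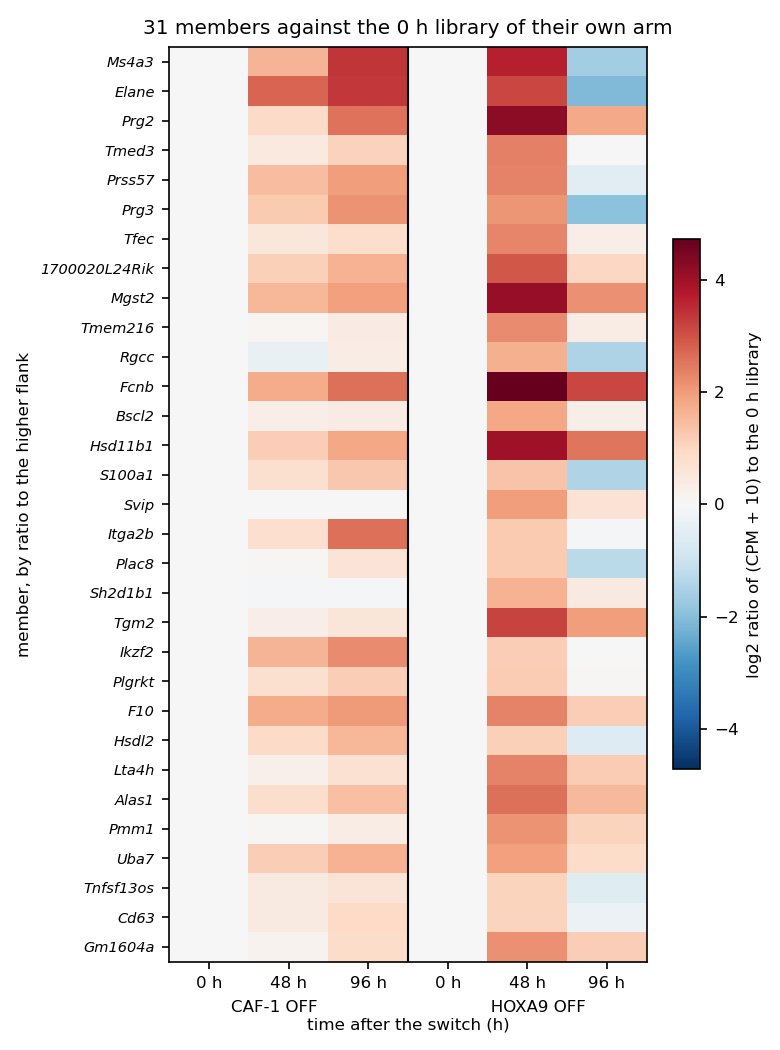
Level of each of the 31 genes (rows) under CAF-1 OFF and HOXA9 OFF at 0, 48 and 96 h (columns, 1 library each), drawn as a colour for the log2 ratio of CPM with 10 added to the 0 h library of the same arm. Of the HOXA9 OFF columns, 48 h is the highest for each gene because the genes were chosen so, while under CAF-1 OFF the median goes from 0.76 at 48 h to 1.27 at 96 h.

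The shape of the course also differed from that of the HOXA9 OFF arm. Under CAF-1 OFF, 28 of 31 genes increased from 0 to 48 h and again from 48 to 96 h by any amount (25.8% of all genes), and 30 were highest at 96 h (30.3% of all genes). The exception was Sh2d1b1, an adaptor of immune receptors, at 20.2, 18.1 and 18.4 CPM, whose 3 intervals overlap. Between 48 and 96 h, 3 genes were at least 2-fold higher again (Ms4a3, Prg2 and Itga2b; 0.710% of all genes). None of the 31 met under CAF-1 OFF the rule that chose them under HOXA9 OFF, a rule that 0.0418% of all genes met there. In the plot of levels relative to 0 h, most rows therefore go up from 48 to 96 h under CAF-1 OFF and all go down under HOXA9 OFF.

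Elane and Ms4a3 had the largest log2 ratios to 0 h of the 31 genes under CAF-1 OFF at 96 h (10 CPM added). Elane was at 129 CPM (95% Poisson interval 118 to 140), 913 (888 to 938) and 1386 (1354 to 1417) under CAF-1 OFF at 0, 48 and 96 h. Under HOXA9 OFF it was at 48.2 CPM (41.8 to 55.3), 512 (493 to 531) and 3.69 (13 UMIs). Elane was thus 10.8-fold higher at 96 h than at 0 h under CAF-1 OFF (95% interval 9.87 to 11.8, log2 ratio 3.33), and it was near absent at the same time in the other arm. Ms4a3 was at 115 CPM (105 to 126), 371 (355 to 387) and 1302 (1271 to 1332) under CAF-1 OFF, set against 64.9 (57.4 to 73.1), 934 (908 to 961) and 14.2 (10.5 to 18.7) under HOXA9 OFF. Its log2 ratio to 0 h under CAF-1 OFF was 1.60 at 48 h and 3.39 at 96 h, the highest of the 31 genes at 96 h. Both genes ended above their HOXA9 OFF peak, Elane by 2.71-fold (2.59 to 2.83) and Ms4a3 by 1.39-fold (1.34 to 1.45).

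Fcnb started from very few UMIs. It was at 3.32 CPM (1.82 to 5.57), 34.7 (194 UMIs) and 69.9 (63.0 to 77.3) under CAF-1 OFF, set against 3.82 (2.18 to 6.20), 354 (338 to 370) and 114 (103 to 125) under HOXA9 OFF. The CAF-1 OFF level at 96 h was 21.0-fold above 0 h (12.4 to 38.9) and still 0.197 times the HOXA9 OFF peak (0.176 to 0.221). Prss57 was at 5.93, 33.3 and 51.9 CPM under CAF-1 OFF, set against 16.9, 125 and 8.51 CPM under HOXA9 OFF. Of the early granulocyte genes, Fcnb alone was at least 2-fold higher under HOXA9 OFF at 96 h than at 0 h, while Elane and Ms4a3 were at least 2-fold lower.

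The other genes of the early granulocyte list, which are also primary granule proteases or peroxidases, did not meet the rule. Prtn3 (proteinase 3), whose gene lies 3137 bases from Elane, was at 1281, 1676 and 1874 CPM under CAF-1 OFF, set against 1181, 2088 and 31.2 CPM under HOXA9 OFF. Mpo (myeloperoxidase) was at 978, 890 and 18.4 CPM and Ctsg (cathepsin G) at 3309, 833 and 11.6 CPM under HOXA9 OFF. These genes were already high at 0 h, where Elane and Ms4a3 were not, and all 6 genes of the list were at least 2-fold lower under HOXA9 OFF at 96 h than at 48 h. Under CAF-1 OFF at 96 h, 3 of the 6 (Elane, Ms4a3 and Fcnb) exceeded their 0 h level by 2-fold or more.

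Of the eosinophil genes, Prg2 had the highest level of the set at the peak. It was at 876 CPM (848 to 905), 16629 (16519 to 16739) and 3021 (2964 to 3079) under HOXA9 OFF. Under CAF-1 OFF it was at 141 CPM (130 to 153), 270 (256 to 284) and 879 (854 to 904). The 96 h level under CAF-1 OFF was 6.23-fold above 0 h (5.72 to 6.80) and 0.0528 times the HOXA9 OFF peak (0.0513 to 0.0544). Prg3 was at 593 CPM (570 to 617), 2522 (2480 to 2565) and 149 (136 to 162) under HOXA9 OFF, set against 74.7 (66.7 to 83.5), 189 (178 to 201) and 362 (346 to 378) with CAF-1 OFF. Both were already at least 2-fold higher in the uninduced HOXA9 OFF clone than in the uninduced CAF-1 OFF clone (0.752% of all genes), and Elane was at least 2-fold lower there (0.146%). Barcodes found in more than 1 library bear on Prg2: without them its log2 ratio under CAF-1 OFF went from 0.89 to 1.05 at 48 h and from 2.56 to 2.72 at 96 h, which made 12 genes at least 2-fold higher at 48 h.

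Of the other 9 genes of the eosinophil list, 7 had at most 6 UMIs in each CAF-1 OFF library and 2, Siglecf and Alox15, had more. Epx, eosinophil peroxidase, had 2, 1 and 0 UMIs there and 0, 238 and 6 UMIs under HOXA9 OFF. Ear2, an eosinophil ribonuclease, had 0, 1 and 0 UMIs under CAF-1 OFF and 0, 384 and 266 under HOXA9 OFF. Il5ra, the receptor of the eosinophil growth factor IL-5, had 5, 6 and 3 UMIs under CAF-1 OFF. Siglecf, a surface lectin of eosinophils, was at 11.2, 21.3 and 23.7 CPM under CAF-1 OFF, set against 11.7, 61.2 and 37.5 CPM under HOXA9 OFF. Alox15, a lipoxygenase that also leads the eosinophil-like cells described further on, had 1, 28 and 29 UMIs under CAF-1 OFF and 9, 178 and 112 under HOXA9 OFF. Prg2 and Prg3 were therefore higher after CAF-1 depletion in a library in which the defining markers Epx and Ear2 stood at 0 UMIs.

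**Figure D2:**
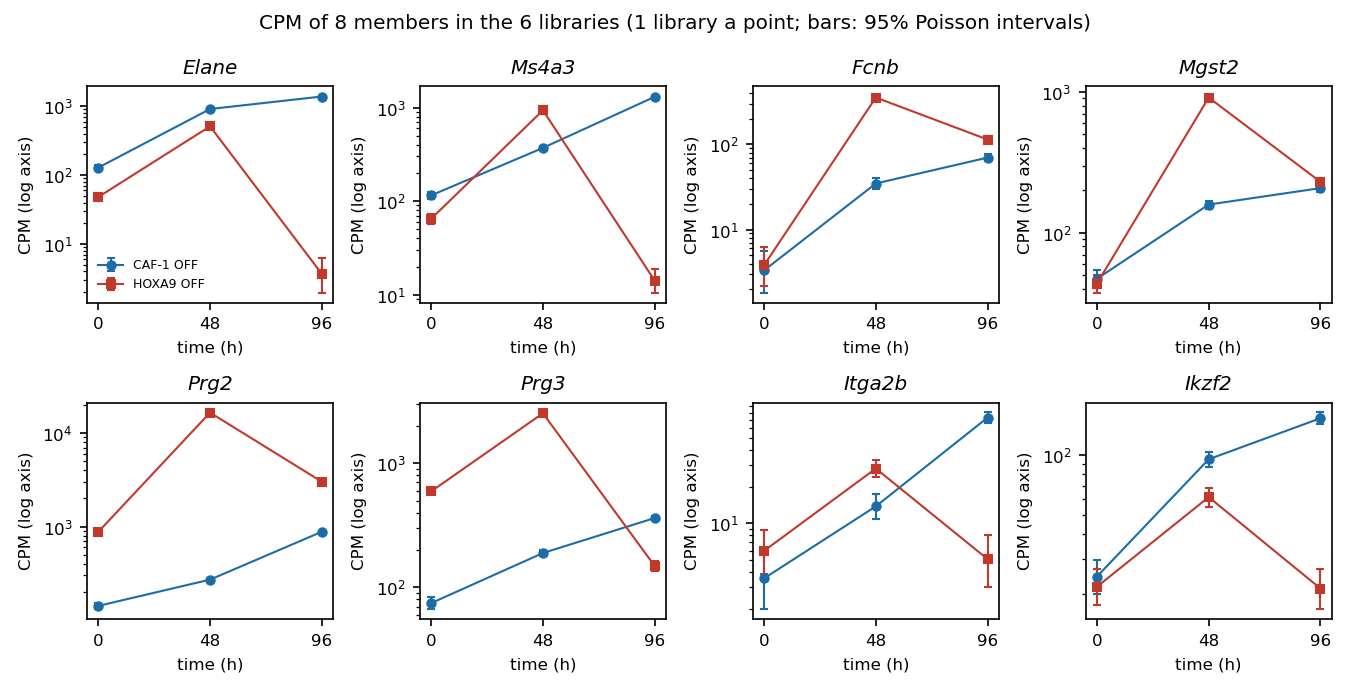
Levels (CPM, log axis) of example genes in the 6 libraries at 0, 48 and 96 h, under HOXA9 OFF and CAF-1 OFF drawn as separate lines and bars for exact 95% Poisson intervals of counting error. Elane and Ms4a3 are at 1386 and 1302 CPM under CAF-1 OFF at 96 h, above their HOXA9 OFF peaks of 512 and 934 CPM, whereas Prg2 stays at 879 CPM against 16629 CPM.

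Itga2b, the integrin chain known from megakaryocytes and platelets, passed the minimum mean only through the CAF-1 OFF library at 96 h (its mean over the other 5 libraries was 11.3 CPM), so its values there are a description. It was at 3.56 CPM (1.99 to 5.87), 13.8 (10.9 to 17.2) and 73.0 (66.0 to 80.6) under CAF-1 OFF, which is 20.5-fold above 0 h at 96 h (12.3 to 37.0). Under HOXA9 OFF it peaked at only 28.1 CPM (23.7 to 32.9), between 5.97 CPM at 0 h and 5.11 CPM at 96 h. Pf4, the platelet chemokine of the same list, was at 22.3, 412 and 2481 CPM under CAF-1 OFF and had 42, 11 and 18 UMIs under HOXA9 OFF. Pf4 thus moved with Itga2b under CAF-1 OFF and not at the HOXA9 OFF peak. Other genes of the list differed from Pf4. Gp9 was at 19.5, 73.4 and 132 CPM under CAF-1 OFF and, with a peak like Itga2b, at 18.6, 43.5 and 3.40 CPM under HOXA9 OFF. Itgb3 was at 5.22, 14.8 and 23.9 CPM under CAF-1 OFF and at 3.34, 25.4 and 16.2 CPM under HOXA9 OFF. Of the 11 genes of the list, 3 (Itga2b, Pf4 and Gp9) reached a mean of 20 CPM. Ikzf2, which encodes the transcription factor Helios, was at 24.4, 95.2 and 153 CPM under CAF-1 OFF against a HOXA9 OFF course of 21.7, 61.4 and 21.3 CPM, and it was 2.49-fold above the HOXA9 OFF peak at 96 h (2.19 to 2.84).

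Among the enzymes, Hsd11b1 was at 4.51, 22.4 and 41.2 CPM under CAF-1 OFF, set against 2.86, 198 and 63.6 CPM under HOXA9 OFF. Mgst2 was at 47.2, 159 and 208 CPM under CAF-1 OFF, 4.40-fold above 0 h at 96 h (3.78 to 5.14), and at 43.7, 911 and 230 CPM under HOXA9 OFF. Lta4h, leukotriene A4 hydrolase, was at 62.2, 76.2 and 109 CPM under CAF-1 OFF, set against 45.8, 270 and 119 CPM under HOXA9 OFF, where it kept an increase at 96 h. On the list of lipid mediator enzymes, which does not hold Mgst2, no gene but Lta4h met the rule. Of the 4 genes of that list with at least 20 CPM, 2 (Lta4h and Alox5ap) were at least 2-fold higher under HOXA9 OFF at 48 h. Alox5ap went on from 2001 to 2806 CPM at 96 h. Alas1 was at 26.1, 53.9 and 87.1 CPM under CAF-1 OFF, set against 21.2, 181 and 79.4 CPM under HOXA9 OFF. Of the 8 genes of heme synthesis, 4 reached a mean of 20 CPM, and Alas1 was the one at least 2-fold higher in either arm (at 48 h under HOXA9 OFF and at 96 h with CAF-1 depleted).

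Several genes barely moved under CAF-1 OFF although they peaked under HOXA9 OFF. Svip, an inhibitor of protein degradation at the endoplasmic reticulum, was at 38.0, 37.7 and 38.0 CPM under CAF-1 OFF, against 42.7, 196 and 73.8 CPM under HOXA9 OFF. Its fold at 96 h was 1.00 with an interval of 0.810 to 1.24. Sh2d1b1 had a fold of 0.910 (0.674 to 1.23), Rgcc, a regulator of the cell cycle, 1.32 (1.15 to 1.51), Tmem216 1.39 (1.13 to 1.70) and Pmm1 1.56 (1.05 to 2.37). With Bscl2, these genes had the lowest log2 ratios of the set at 96 h under CAF-1 OFF, from -0.09 to 0.38. Tgm2 was at 99.1 CPM at the HOXA9 OFF peak and at only 5.75 CPM (3.90 to 8.16) under CAF-1 OFF at 96 h, with 0.712 CPM (0.147 to 2.08) at 0 h.

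The remaining genes lay between these extremes. Tmed3, a cargo receptor of the early secretory pathway, was at 124, 174 and 276 CPM under CAF-1 OFF, set against 98.6, 547 and 99.6 CPM under HOXA9 OFF. Plac8, the most abundant of the 31 genes in the CAF-1 OFF libraries, was at 3776, 3922 and 5882 CPM under CAF-1 OFF, set against 3697, 8796 and 1510 CPM under HOXA9 OFF. F10 was at 3.80, 36.3 and 45.0 CPM under CAF-1 OFF, 11.9-fold above 0 h at 96 h (7.16 to 21.1), and at 5.25, 66.5 and 24.4 CPM under HOXA9 OFF. Tfec was at 17.3, 29.5 and 38.6 CPM under CAF-1 OFF, set against 5.73, 68.0 and 9.65 CPM under HOXA9 OFF. 1700020L24Rik was at 11.9, 38.1 and 57.8 CPM under CAF-1 OFF, set against 12.2, 159 and 33.5 CPM under HOXA9 OFF. S100a1, Plgrkt, Hsdl2 and Uba7 were 2.61-, 2.46-, 3.87- and 5.13-fold above 0 h under CAF-1 OFF at 96 h, and Bscl2 had a log2 ratio of 0.38 at that time. At the edge of the rule, Tnfsf13os, Cd63 and Gm1604a exceeded the higher flank of the HOXA9 OFF peak 2.06-, 2.05- and 2.02-fold with 10 CPM added, and Rnd1, Slc25a17 and Pde4d stayed just outside at 2.00- (under the limit before rounding), 1.99- and 1.94-fold.

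Set against the HOXA9 OFF peak, the CAF-1 OFF library at 96 h was above it for 5 genes (Elane, Ms4a3, Itga2b, Ikzf2 and Hsdl2) and below it for 25, with intervals that exclude equality. For Plgrkt the interval holds equality (0.916-fold, 0.832 to 1.01). At least 2-fold differences (10 CPM added) were present for 3 genes that were higher (Elane, Itga2b and Ikzf2; 15.7% of all genes) and 16 that were lower (9.10% of all genes). At 96 h under HOXA9 OFF, 10 of the 31 genes were still at least 2-fold above 0 h (18.1% of all genes), among them Prg2, Mgst2, Fcnb and Lta4h, and 6 were at least 2-fold below it (39.8% of all genes): Ms4a3, Elane, Prg3, Rgcc, S100a1 and Plac8. The median log2 ratio of all genes between these libraries was -0.56, so the whole scale was shifted. Late granulocyte genes such as Ltf and S100a9 summed to 10510 CPM at 48 h and 151969 CPM at 96 h under HOXA9 OFF and to at most 1212 CPM under CAF-1 OFF; their part in the lower share of the 31 genes at 96 h was not tested. Progenitor genes such as Cd34 and Kit summed to 1383, 196 and 61.3 CPM under HOXA9 OFF and to 1467, 1418 and 1272 CPM under CAF-1 OFF.

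To find which cells hold the genes, the cells of each library were clustered on their variable genes with all 31 genes left out, and clusters were named only from other markers. Under HOXA9 OFF at 48 h, 9 clusters of at least 20 cells were found, and the 31 genes did not share 1 of them. Early granulocyte-like cells (cluster 1, 246 cells, led by Hells, Mpo and Mcm3) were highest for 5 genes (8.35% of all genes examined), and cluster 2 (204 cells, led by the mitosis genes Pbk, Top2a and Cdk1) for 4 (26.1%). Eosinophil-like cells (cluster 3, 196 cells, led by Epx and Alox15) were highest for 6 (3.49%). Cluster 6 (146 cells, led by Lrg1, Clec4b2 and Ngp) was highest for 5 (6.10%) and cluster 8 (100 cells, led by Gm16104, Myl10 and Rnd1) for 3 (6.29%). Mast cell or basophil-like cells (cluster 9, 46 cells, led by Cma1, Cyp11a1 and Ms4a2) were highest for 4 (21.9%), late granulocyte-like cells (cluster 4, 168 cells) for 2 (7.52%) and cluster 5 (155 cells, led by Lgals3 and Ccl6) for 1 (8.23%), which leaves Uba7 in monocyte-like cells (cluster 7, 134 cells). For 11 of the 31 genes the interval of the highest cluster lay apart from that of the next. The share of all genes for which this holds was not counted, so the number does not set the 31 genes apart.

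Prg2 was concentrated in 1 kind of cell. It was at 118180 CPM (117359 to 119005) in the eosinophil-like cluster, which held 89.8% of its UMIs, and at 6368 CPM in the next cluster. Prg3 was at 13864 CPM (13584 to 14148) there, with 69.5% of its UMIs. Elane was at 7.45 CPM in the same cells and at 1164 CPM (1099 to 1232) in the early granulocyte-like cluster and 1095 CPM in cluster 2. With each cell thinned to 1300 UMIs, Prg2 was found in 100% of 182 eosinophil-like cells (lower limit 98.0%) and Elane in 0 of them, which at 3 counts allows up to 1.65% of such cells to have a UMI after thinning. Prg2 was also found in 32.1% of monocyte-like cells (134 cells, median depth 3066 UMIs before thinning, against 3331.5 in the eosinophil-like cells), which should lack the gene, and shares near that size are read as background. The next gene of the eosinophil-like cells was Itga2b at 124 CPM (98.5 to 153), with 55.7% of its UMIs there, and it was at 112 CPM in mast cell or basophil-like cells and 7.72 CPM in early granulocyte-like cells.

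The early granulocyte genes were shared between clusters 1 and 2, which are led by genes of DNA replication and of mitosis. Ms4a3 was at 1808 CPM in early granulocyte-like cells and 1791 CPM in cluster 2, whose intervals overlap, and at 37.2 CPM in eosinophil-like cells. Prss57 was highest in cluster 2 at 231 CPM, as were Tmed3 at 794 CPM and Rgcc at 454 CPM. Fcnb differed from Elane, with 783 CPM (702 to 872) in the late granulocyte-like cells that are led by Ltf and S100a9, where Elane was at 44.2 CPM. S100a1 (340 CPM), Tnfsf13os (80.1 CPM) and Hsdl2 (67.5 CPM) were highest in the early granulocyte-like cells, and 1700020L24Rik in cluster 2 (237 CPM).

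**Figure D3:**
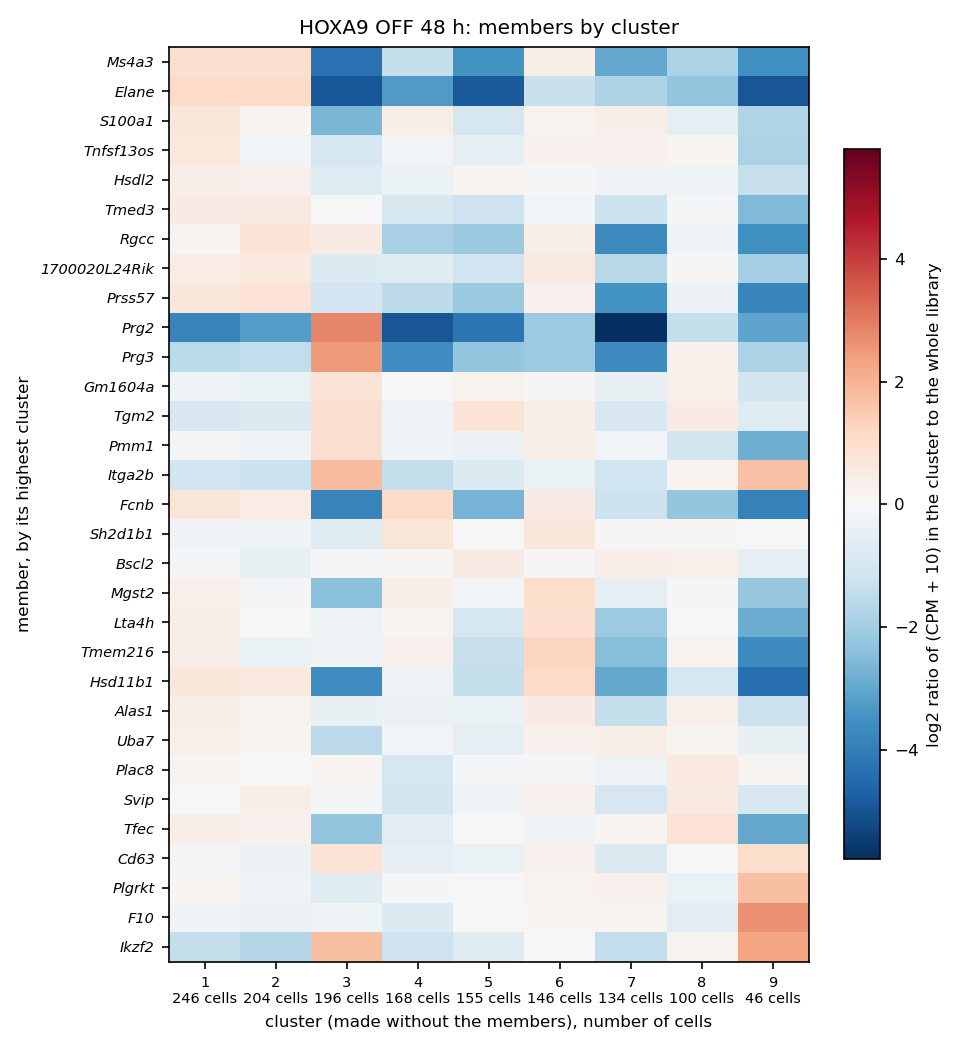
Level of each of the 31 genes in the clusters of the HOXA9 OFF library at 48 h, relative to the whole library (log2 of CPM with 10 added, colour scale), with clusters in columns and genes in rows. The genes do not share 1 column: Prg2 and Prg3 stand out in the eosinophil-like cluster 3 (118180 and 13864 CPM), Elane and Ms4a3 in clusters 1 and 2, and F10 and Plgrkt in the mast cell or basophil-like cluster 9.

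The 5 genes highest in cluster 6 included the enzymes Mgst2, Lta4h, Hsd11b1 and Alas1. Mgst2 was at 1853 CPM (1737 to 1975) there, Lta4h at 537 CPM (476 to 605), Tmem216 at 490 CPM (431 to 555) and Hsd11b1 at 435 CPM (380 to 497), each apart from the next cluster. Alas1 was at 253 CPM there and at 234 CPM in early granulocyte-like cells, which overlap. A separate group, Cd63 (4318 CPM), Plgrkt (587 CPM), F10 (461 CPM) and Ikzf2 (335 CPM), was highest in the mast cell or basophil-like cells. F10 was at 72.6 CPM or less in every other cluster of at least 20 cells. Plac8, at 12864 CPM, Svip, at 283 CPM, and Tfec, at 127 CPM, were highest in cluster 8. Tgm2 at 207 CPM, Gm1604a at 219 CPM and Pmm1 at 127 CPM were highest in eosinophil-like cells, Bscl2 at 93.0 CPM in cluster 5, Uba7 at 105 CPM in monocyte-like cells and Sh2d1b1 at 142 CPM in late granulocyte-like cells, none of them apart from the next cluster.

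Levels differed widely between the clusters of this library. The median log2 ratio of the highest to the lowest cluster was 3.31 over the 31 genes, against 1.31 over all genes, and 21 of the 31 differed over 4-fold (19.4% of all genes). Under CAF-1 OFF at 96 h the median was 1.84 (0.95 over all genes), and 13 differed over 4-fold (8.42% of all genes). The eosinophil-like cells of HOXA9 OFF at 48 h held 51.9% of all UMIs of the 31 genes in that library (19.6% without Prg2), and these genes made up 14.8% of the UMIs of those cells (3.02% without Prg2).

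Before induction, most of the genes were highest in 1 small cluster in either clone. Under CAF-1 OFF at 0 h this was cluster 6 (68 cells, 10.5% of cells, led by Ly6c2, Gda and Slpi), which was highest for 19 of the 31 genes (11.5% of all genes). It held 97.6% of Prg2 UMIs, at 1241 CPM, 73.1% of Elane UMIs, at 847 CPM, 68.1% of Ms4a3 UMIs, at 708 CPM, and 92.9% of Fcnb UMIs, at 27.8 CPM. Under HOXA9 OFF at 0 h it was cluster 6 (44 cells, 9.30% of cells, led by Ly6c2, Slpi and Gda), highest for 21 of 31 (11.0% of all genes), with Prg2 at 5979 CPM, Elane at 423 CPM and Ms4a3 at 388 CPM. The clusters shared 6 of their 10 leading genes (Gda, Hp, Igsf6, Ly6c2, Slpi and Thbs1). The uninduced HOXA9 OFF clone also held 30 mast cell or basophil-like cells (cluster 7), in which Prg3 was highest, at 4814 CPM, and Prg2 was at 4941 CPM.

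After 48 h of CAF-1 depletion, a late granulocyte-like cluster (cluster 7, 70 cells, led by Chil3, S100a8 and Ly6c2) was highest for 17 of the 31 genes (16.3% of all genes). Its name rests on 5 of 13 late granulocyte genes at least 2-fold higher than in the other cells, with S100a8 at 135 CPM. Elane was at 3413 CPM there and at 3139 CPM in cluster 8 (62 cells, led by Dgat2 and Il33), and Prg2 at 2209 CPM with 48.8% of its UMIs. Fcnb was at 222 CPM in cluster 7 and 179 CPM in cluster 8. In contrast to 0 h, the highest cluster held only 22.3% of Elane UMIs.

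At 96 h of CAF-1 depletion, cluster 7 (66 cells, 7.24% of cells, led by Mogat2, Clec4a2, Gapt and Cybb) was highest for 23 of the 31 genes (22.3% of all genes), and 12 of these lay apart from the next cluster. The share of all genes set apart in this way was not counted. Cluster 7 could not be named from the markers. The number of genes highest in 1 cluster was 14 with finer clusters (resolution 1.2) and 27 with coarser ones (resolution 0.4). It was 16 when the 31 genes took part in the clustering. Prg2 was at 8270 CPM (7909 to 8642) there, against 953 CPM in the next cluster, Prg3 at 2190 CPM (2006 to 2386), Lta4h at 549 CPM (459 to 651) and Fcnb at 540 CPM (451 to 642). Alas1 at 335 CPM, Hsd11b1 at 234 CPM and Tmem216 at 214 CPM were also highest there and apart from the next cluster. The same cells held Ctsg at 6825 CPM and Prtn3 at 3057 CPM, and 0 UMIs of Epx were present in the library. Genes that peaked in different cells of HOXA9 OFF at 48 h thus had their highest level in 1 cluster at this resolution. They were all those of the eosinophil-like cluster 3, of the late granulocyte-like cells and of clusters 2, 5, 6 and 8 of HOXA9 OFF at 48 h. With them were S100a1 of the early granulocyte-like cells and Cd63 of the mast cell or basophil-like cells. At resolution 1.2, and with the 31 genes in the clustering, Prg2 was highest in another cluster than the one counted. At resolution 0.4, and with called doublets left out, Prg2 stayed in the one counted. With clusters under 20 cells ranked too, the number was 21, and Prg3 was highest in cluster 8 (19 cells). Prg2 was found in 52.6% of thinned cells of cluster 8 and 23.1% of those of cluster 7.

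Elane and Ms4a3 were highest in other cells of the same library. Elane was at 2862 CPM (2719 to 3011) and Ms4a3 at 2444 CPM (2312 to 2581) in a late granulocyte-like cluster (cluster 6, 73 cells, led by Serpinb2 and S100a8), where Prg2 was at 97.0 CPM. The name rests on 4 of 13 late granulocyte genes at least 2-fold higher than in the other cells, with S100a8 at 112 CPM. In the late granulocyte-like cells of HOXA9 OFF at 48 h, 12 of the 13 were. F10, Hsdl2 and Uba7 were highest in cluster 6 too, though not apart from the next cluster. Ikzf2 and Plgrkt were highest in cluster 3 (led by the mitosis genes Ube2c and Cdc20), at 202 and 194 CPM, and Tnfsf13os in cluster 5.

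**Figure D4:**
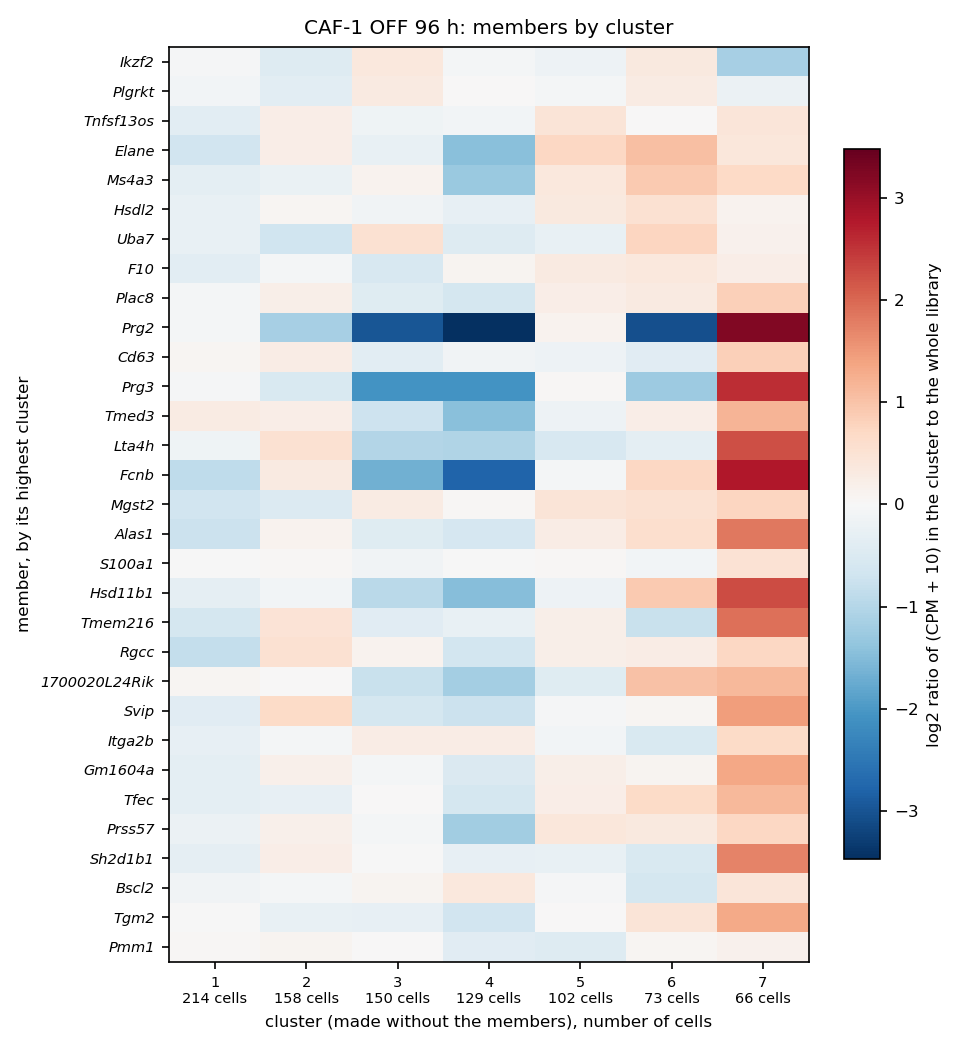
Level of each of the 31 genes in the clusters of the CAF-1 OFF library at 96 h, relative to the whole library (log2 of CPM with 10 added, colour scale), with clusters in columns and genes in rows. Cluster 7 is the highest for 23 genes, with Prg2 at 8270 CPM and Fcnb at 540 CPM, while Elane and Ms4a3 are highest in cluster 6.

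For Elane and Ms4a3 the increase at 96 h was not limited to the highest cluster. The lowest cluster of at least 20 cells under CAF-1 OFF at 96 h was above the whole 0 h library for 20 of the 31 genes, and at least 2-fold above it with 10 CPM added for 8, against 9 and 0 genes at 48 h. The share of all genes that meet the same condition was not counted, so these counts do not set the 31 genes apart. For Elane that lowest cluster was at 497 CPM and for Ms4a3 at 527 CPM, in both cases cluster 4, which is led by Hist1h2bc, Myl10 and Dntt. For Itga2b it was at 47.5 CPM, in the late granulocyte-like cluster 6, and for Ikzf2 at 62.8 CPM, in cluster 7. Prg2 differed, with 70.1 CPM in cluster 4, which is below the 141 CPM of the whole 0 h library, and so did Fcnb, with 1 UMI there. Prg3 was at 78.4 CPM in that cluster, against 74.7 CPM at 0 h. At 48 h the lowest clusters of Elane (73.0 CPM) and Ms4a3 (10.3 CPM) were still below the 0 h library.

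Shares of cells gave the same contrast. With each cell thinned to 1300 UMIs, Elane was found in 8.85%, 39.8% and 58.5% of cells under CAF-1 OFF at 0, 48 and 96 h and Ms4a3 in 9.16%, 29.3% and 65.9%. Prg2 was found in 1.90%, 3.64% and 9.20% and Prg3 in 2.53%, 10.6% and 15.5% of them. Under HOXA9 OFF, Elane was found in 4.24%, 20.3% and 0.218% of cells and Prg2 in 7.20%, 55.1% and 17.0%. In the CAF-1 OFF libraries, a UMI of Itga2b was seen in 0.632%, 2.65% and 8.76% of cells and 1 of Ikzf2 in 3.48%, 12.3% and 18.3%. Cells shallower than 1300 UMIs were left out, which were 14, 20 and 9 cells under CAF-1 OFF and 1, 28 and 134 under HOXA9 OFF. The median thinned cell held 7, 9 and 15 UMIs of the 31 genes under CAF-1 OFF and 7, 25 and 3 under HOXA9 OFF.

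With Prg2 counted, the UMIs of the set were spread more evenly over CAF-1 OFF cells. The tenth of cells with the most UMIs of these genes held 27.0% of them at 0 h, 26.7% at 48 h and 25.5% at 96 h under CAF-1 OFF, while the shares under HOXA9 OFF were 34.4%, 49.1% and 55.6%.

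Whether granulocyte and eosinophil genes stood in the same cells was examined with the 3 granulocyte genes (Elane, Ms4a3 and Fcnb) and the 2 eosinophil genes (Prg2 and Prg3), summed per thinned cell. At least 1 UMI of each kind was present in 34.4% of 1376 cells of HOXA9 OFF at 48 h (Clopper-Pearson interval 31.9 to 37.0) and in 15.5% of 902 cells of CAF-1 OFF at 96 h (13.2 to 18.1). Without thinning the shares were 56.4% and 41.1%. Since 1 UMI of Prg2 was also found in monocyte-like cells, a stricter level of 5 UMIs was set. At least 5 UMIs of the eosinophil genes were present in 320 cells of HOXA9 OFF at 48 h and in 48 cells of CAF-1 OFF at 96 h. Of these, 5.94% (3.61 to 9.12) under HOXA9 OFF and 29.2% (17.0 to 44.1) under CAF-1 OFF also had at least 5 UMIs of the granulocyte genes.

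**Figure D5:**
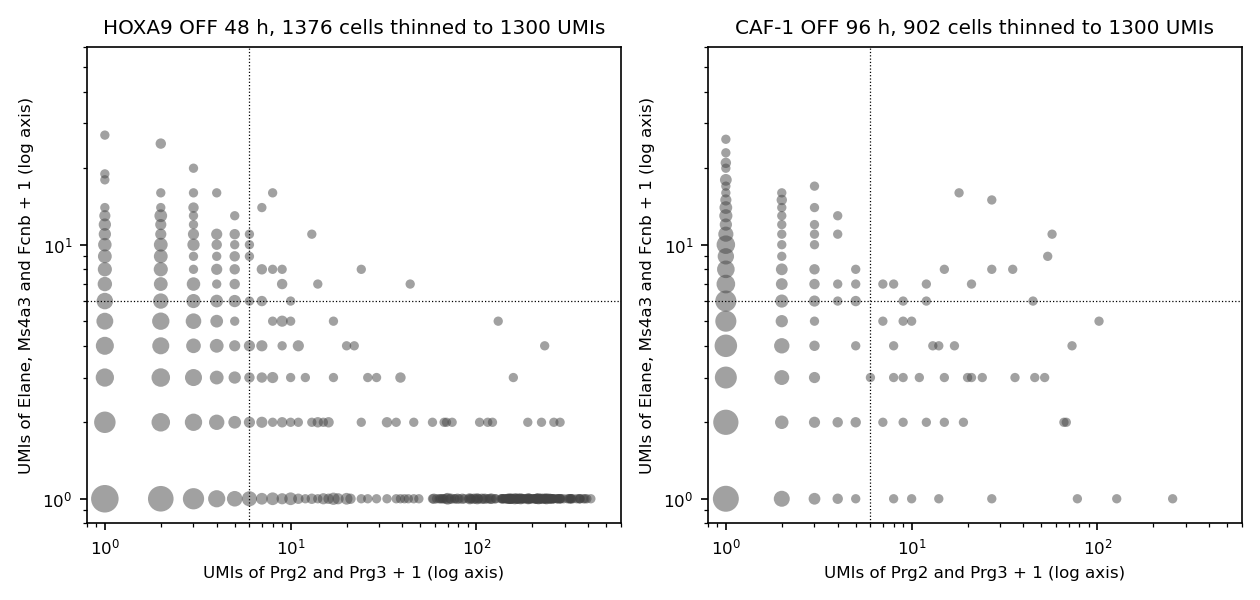
Thinned cells of HOXA9 OFF at 48 h and CAF-1 OFF at 96 h by their UMIs of the granulocyte genes (Elane, Ms4a3, Fcnb) and of the eosinophil genes (Prg2, Prg3), on log axes after adding 1, with larger points for more cells and dotted lines at 5 UMIs. Under HOXA9 OFF at 48 h, 19 of 320 cells with at least 5 eosinophil-gene UMIs also have 5 granulocyte-gene UMIs, and under CAF-1 OFF at 96 h 14 of 48 do.

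These intervals count cells of 1 library each, so the difference has no replicate check. Cells with 5 UMIs of both kinds were 1.38% of all thinned cells under HOXA9 OFF, where the product of the separate shares is 3.87%, and 1.55% under CAF-1 OFF, where the product is 1.68%. Over 10 draws of the thinning, the shares among eosinophil-gene cells ranged from 3.96% to 7.36% under HOXA9 OFF and from 21.3% to 31.4% under CAF-1 OFF. Without thinning the shares were 38.6% of 596 cells and 82.8% of 99 cells. Granulocyte-gene cells were also more frequent under CAF-1 OFF at 96 h, where 31.6% of all thinned cells had at least 5 UMIs of these genes, against 16.6% under HOXA9 OFF at 48 h. The median cell with at least 5 eosinophil-gene UMIs had 71.5 of them under HOXA9 OFF and 15 under CAF-1 OFF. Cells with at least 5 UMIs of both kinds had a median of 4489 total UMIs under HOXA9 OFF, against 3861 in cells with the eosinophil genes alone, and 5154.5 against 5062 under CAF-1 OFF. The part of doublets in these cells was not tested beyond Scrublet, which called 4 of 1404 cells under HOXA9 OFF at 48 h and 9 of 911 under CAF-1 OFF at 96 h, and without its calls the shares were 5.97% and 29.2%.

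At 96 h of HOXA9 OFF, what was left of Prg2 and Prg3 stood mostly in 1 cluster. Cluster 7 (120 cells, led by Serpinb2, Alox15 and Mpo, with Ccr3) held 95.3% of Prg2 UMIs, at 30172 CPM, and 94.7% of Prg3 UMIs, and was highest for 14 of the 31 genes (32.8% of all genes). It held 54.2% of all UMIs of the 31 genes in that library, and 21.6% without Prg2. Elane was at 26.8 CPM there (12.2 to 50.8). Fcnb was instead highest in a late granulocyte-like cluster (cluster 2, 243 cells), at 364 CPM with 58.6% of its UMIs.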

How the data were processed

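Single-cell RNA-seq libraries (10x Chromium, 3′ ends) were made from live-sorted cells of 6 groups, with 1 library per group, taken from the submitters' descriptions. The authors aligned reads to GRCm38 with Cell Ranger (3.0.1 in the submitters' processing notes) and deposited UMI counts per gene and barcode as whole numbers, without normalization. Barcodes were kept when they held 200 to 6000 genes and the 13 mitochondrial genes gave no more than 10% of UMIs (5872 of 7821). UMIs were summed per library and scaled to CPM, and ratios were taken after adding 10 CPM, which understates changes of low genes. Intervals are exact 95% Poisson or binomial intervals and cover counting error only. Folds without the added 10 CPM carry the binomial interval. A share of 0 cells is given with the limit that a count of 3 allows. With 1 library per group, p-values could not be had, so differences are described by size, beside the share of all 4789 genes past the same size.

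The 31 genes and the gene lists were chosen with earlier results of these data known. Named genes are the 10 with the largest peak ratio, those on a list, the 5 largest increases and 5 largest decreases from 0 to 96 h of CAF-1 OFF, the 3 most abundant per cluster of HOXA9 OFF at 48 h, and the 3 on either side of the 2-fold limit. The other genes of the set, and the comparison genes Epx, Ear2, Il5ra, Siglecf, Alox15, Prtn3, Mpo, Ctsg, Pf4, Gp9, Itgb3 and Alox5ap, were added after their values were seen.

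Cells of each library were clustered with scanpy 1.11.5 on 2000 variable genes without the 31 genes (20 components, 15 neighbours, Leiden resolution 0.8). Clusters under 20 cells were not ranked. A name needs at least 3 markers of the cell type, and genes of the set did not count. For shares of cells, each cell was thinned to 1300 UMIs. No doublets were removed. Scrublet called 125 of 5872 cells and only 4 of 1404 in HOXA9 OFF at 48 h, so doublets there are largely unassessed. The peak rule and the thinning were tested on simulated counts. Alternatives changed the added CPM, the minimum level, the scaling (edgeR 4.0.16 for TMM factors only), the filters, the clustering and the thinning.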

Additional observations from a re-analysis of the deposited data

How the results depend on the processing

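No paired analysis was possible because each group is 1 library and no replicate numbers are shared between groups that could be blocked. Of the results that answer a comparison, 82 kept their value within the limits set and 21 moved, and none of these turned its direction. Of the single-gene log2 ratios, 7 changed sign, all of Plac8 at 48 h or Svip, whose values lay at most 0.0545 from 0. The number of genes that meet the rule was 47 with 1 CPM added, 15 with 50 CPM, 52 with a minimum mean of 5 CPM, 54 with no minimum and 79 when mitochondrial and ribosomal protein genes were left out of the total; these made up 11.2% of UMIs in HOXA9 OFF at 96 h and 31.8% to 33.7% elsewhere. With TMM factors it was 37, of which 26 are among the 31, and with median-of-ratios factors 25, of which 20 are. Under these rules the genes at least 2-fold higher in CAF-1 OFF at 48 h numbered 18 with 1 CPM added, 3 with 50 CPM and 18 without mitochondrial and ribosomal protein genes, and at 96 h 6 with 50 CPM and 34 without those genes. The cluster of HOXA9 OFF at 48 h that is highest for the largest number of genes (6 of 31) held 51.9% of the UMIs of all 31. The value was 12.2% when the genes took part in the clustering, 53.2% at resolution 0.4, 6.75% at resolution 1.2 and 52.4% without Scrublet calls. In the clusterings with 12.2% and 6.75% another cluster was highest for the largest number of genes (8 of 31). In CAF-1 OFF at 96 h the cluster was highest for 14 genes at resolution 1.2 and for 27, Elane and Ms4a3 among them, at resolution 0.4. The share of cells with granulocyte and eosinophil genes was 56.4% without thinning, 56.1% at 2600 UMIs and 14.9% with 2 UMIs of each in HOXA9 OFF at 48 h, and 41.1%, 25.9% and 6.76% in CAF-1 OFF at 96 h.

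With 1 library per group, differences between libraries of the same group are unknown. The clone and the arm cannot be told apart. Genes under a few CPM at 0 h, such as Fcnb, Itga2b and Tgm2, rest on few UMIs there, and their folds have wide intervals. The HOXA9 OFF library at 96 h has the fewest UMIs per cell.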
